A study of Nematostella vectensis with 123 samples.

Results

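Single embryos of Nematostella vectensis, the starlet sea anemone, with label times of 30 to 36 h were compared with embryos of 24 to 30 h. The members were chosen by label time alone. The later window took label times of 1800 to 2120 min (embryos 46 to 49 and 51 to 55) and the earlier window 1440 to 1760 min (embryos 37 to 45). Each window held 9 embryos, so 18 of the 123 embryos of the series entered the comparison. The labels give the times without a unit or a zero point. They were read as minutes after the 4-cell stage, since the protocol collected embryos from that stage on at intervals of 20 min. The labels of the series run to 72 h on this reading, past the 48 h that the protocol names.

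Nematostella is a cnidarian, the group of corals, jellyfish and anemones, and is studied as an outgroup to animals with bilateral bodies. After cleavage and a hollow blastula stage, the embryo gastrulates by moving cells of the future inner layer inward at the oral pole. The gastrula then grows cilia with which it swims, and becomes an elongated planula larva with an outer and an inner cell layer. RNA that the mother placed in the egg is gradually lost over these stages, while the embryo's own transcription takes over.

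Per the labels' protocols, eggs and sperm were mixed and the jelly was dissolved with cysteine. Embryos were put singly into drops at the 4-cell stage, kept at 20 °C and frozen singly in liquid nitrogen. All 18 embryos shared this handling, and no strain or treatment sets the windows apart in the labels. RNA of each embryo was measured with CEL-Seq, which gives every sample a barcode, amplifies polyadenylated RNA linearly and reads its 3' end. The libraries were treated with DSN, a nuclease that lowers the share of abundant molecules.

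Each embryo had a label time of its own, 40 min from its neighbour, so no replicates at equal time existed and the spread within a window includes any trend over its 6 h. The labels do not say whether 1 or several clutches were used. The p-values set a difference between windows against the spread of these embryos only, and may not hold for other clutches. The deposited counts were made per transcript model. A reference table of 38762 genes (assembly jaNemVect1.1) was searched for the 40499 model identifiers and held 0 of them. Neither it nor the deposited file pairs a model with a gene name, so models are given by identifier and the function of each is left out. Since whole embryos were measured, fewer cells of a type and less RNA per cell cannot be told apart in any value below.

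Counts on transcript models ranged from 479179 to 2051815 per embryo at 30-36 h (median 812631) and from 394965 to 2646585 at 24-30 h (median 1124264). Unaligned counts were 35.1 to 47.5% of all counts at 30-36 h and 33 to 38.9% at 24-30 h, and embryo 54 (30-36 h) had the highest share. No pair of embryos within a window agreed within sampling noise (smallest chi-square per degree of freedom 7.79 over 72 pairs). Levels are given as CPM, the count scaled to a common library total. Taking 3 counts as the limit, a model listed at 0 may have reached 6.26 CPM in the shallowest 30-36 h embryo and 7.6 CPM in the shallowest 24-30 h embryo, which covers counting error only.

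Several embryos stood apart from their own window. On principal component 1, which held 17.2% of the variance, embryo 49 (30-36 h) and embryos 39, 43 and 45 (24-30 h) scored between -58.5 and -65.4, whereas embryo 53 (30-36 h) scored 78.6. Embryo 46 (30-36 h) scored 103 on component 3 (10.3% of the variance). These 6 embryos also had the lowest ratios of gene to spike-in counts in their windows, 1.935, 3.063 and 3.221 at 30-36 h and 3.238, 3.287 and 3.447 at 24-30 h. The other 12 embryos had ratios of 4.517 to 8.504. The 6 embryos were also the shallowest libraries of their windows, with 479179 to 591373 gene counts at 30-36 h and 394965 to 811057 at 24-30 h. The other embryos had at least 736539 gene counts at 30-36 h and 1076231 at 24-30 h. The spread between embryos was similar in both windows. The biological coefficient of variation was 0.496 at 30-36 h and 0.468 at 24-30 h. The median Spearman correlation between embryos was 0.719 within 30-36 h, 0.734 within 24-30 h and 0.709 between embryos of different windows. Counts of changed models are therefore also given without the 6 embryos, which also removes the shallowest libraries.

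Few transcript models were called between 30-36 h and 24-30 h embryos, and with TMM scaling most of those called were higher in the later window. A model was called when its Benjamini-Hochberg adjusted p in edgeR's quasi-likelihood test was under 0.05 and its log2 fold change was at least 1 in size. Of 12689 models tested, 71 were called, which is 0.560%. Among these, 54 models (0.426%) rose and 17 models (0.134%) fell in 30-36 h embryos. An unadjusted p under 0.05 was reached by 1900 models. The risers had a median log2 fold change of 1.85 (1.06 to 3.30) and the fallers one of -1.63 (-5.56 to -1.25), against a median of -0.01 over all models tested. Mean levels over all 18 embryos had a median of 37.2 CPM among the risers and 66.3 CPM among the fallers, against 30.9 CPM over all models tested.

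**Figure D1:**
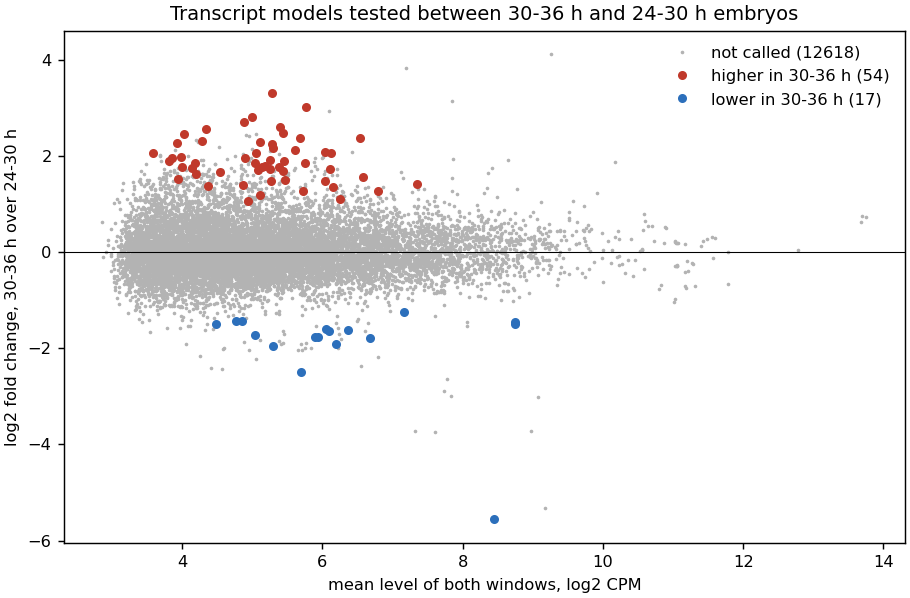
Log2 fold change of 30-36 h over 24-30 h embryos (vertical axis) against the mean level of both windows in log2 CPM (horizontal axis) for the 12689 transcript models tested. The 54 models called higher (red) and the 17 called lower (blue) overlap in fold change with models not called (grey), some of which lie farther out, and the lowest blue point, at -5.56, is a model whose 24-30 h counts came mainly from 1 embryo.

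The differences were seldom complete. The CPM ranges of the windows were apart for 10 of the 12689 models tested (0.0788%), and 4 of the 54 risers and 2 of the 17 fallers were among the called models with ranges apart. Leaving out each of the 18 embryos in turn, 12 models (8 risers and 4 fallers) were called every time. With spike-in scaling the median over all models tested shifted to -0.34 on the log2 scale, and 3011 of the 12689 were above 0. All 54 risers stayed above 0 and all 17 fallers stayed below it. Their choice in the same embryos, by a log2 fold change of at least 1 in size, largely fixed this. The calls became 32, of which 4 were higher and 28 lower. Higher calls were then 12.5% of the calls, against 76.1% with TMM scaling.

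The riser with the largest fold change among those called in all 18 leave-one-out fits was Nv.T1.33844.1, the only model of its identifier stem. Its lowest, median and highest levels were 11.08, 82.82 and 243.5 CPM in 30-36 h embryos, against 0, 14.48 and 20.05 CPM in 24-30 h embryos. Of the 30-36 h embryos, 8 of 9 lay above every 24-30 h embryo, with embryo 48 the exception, and 2 of the 24-30 h embryos were at 0. The means were 96.7 ± 76.9 CPM at 30-36 h and 12.0 ± 8.03 CPM at 24-30 h (SD, n = 9 each), a log2 fold change of 3.01 ± 0.57 (SE) with an adjusted p of 0.0231 in edgeR's quasi-likelihood test. Across earlier windows its mean stayed between 5.89 CPM (18-24 h) and 17.9 CPM (12-18 h), and later it reached 121 CPM at 36-42 h and 145 CPM at 42-48 h.

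The next riser, Nv.T1.57790.1, also the only model of its stem, had 21.72, 46.17 and 285.2 CPM (lowest, median, highest) in 30-36 h embryos, against 4.932, 9.803 and 33.17 CPM in 24-30 h embryos. Here 7 of 9 embryos of 30-36 h lay above every 24-30 h embryo, and embryo 53 was far above the rest of its window, with the next embryo at 68.91 CPM. The means were 71.7 ± 81.6 CPM at 30-36 h and 12.8 ± 9.17 CPM at 24-30 h (SD, n = 9 each), with a log2 fold change of 2.60 ± 0.50 (SE) and an adjusted p of 0.0231 (edgeR). Unlike the previous model it began high. Its mean was 181 CPM at 0-6 h, 99.6 CPM at 6-12 h, 117 ± 246 CPM at 12-18 h and 28.6 CPM at 18-24 h. At 12-18 h 1 embryo reached 760.6 CPM while the median was 20.3 CPM. At 36-42 h its mean was 50.3 CPM.

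Among the fallers, the largest change called in every leave-one-out fit was that of Nv.T1.5919.5. It had 6.266, 15.44 and 37.2 CPM (lowest, median, highest) at 30-36 h, against 17.97, 55.7 and 242.9 CPM at 24-30 h. Of the 30-36 h embryos, 7 of 9 lay below every 24-30 h embryo, and the 2 latest embryos of 24-30 h were the lowest of theirs. The log2 fold change was -2.50 ± 0.47 (SE, adjusted p = 0.0231, edgeR). The model is 1 of 7 with the stem 5919, of which 4 were called lower, and the counts summed over the stem fell by 1.83 ± 0.37 (log2, SE, adjusted p = 0.0286). Its mean was 735 CPM at 6-12 h and 35.0 CPM at 18-24 h, so the mean of 88.6 CPM at 24-30 h was above that of the window before it, and 25.6 CPM followed at 36-42 h.

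Nv.T1.300.1, the only model of its stem, was the named faller without overlap. Its lowest, median and highest levels were 7.075, 13.67 and 24.57 CPM at 30-36 h, against 25.79, 45.16 and 108.9 CPM at 24-30 h. All 9 embryos of 30-36 h lay below all 9 of 24-30 h, so the windows did not overlap. The means were 14.8 ± 5.03 CPM at 30-36 h and 51.2 ± 24.8 CPM at 24-30 h (SD, n = 9 each), and the log2 fold change was -1.71 ± 0.30 (SE, adjusted p = 0.0141, edgeR). Across the series its mean was 140 CPM at 0-6 h and 22.8 CPM at 18-24 h, and after 30-36 h it was 30.8 CPM at 36-42 h.

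**Figure D2:**
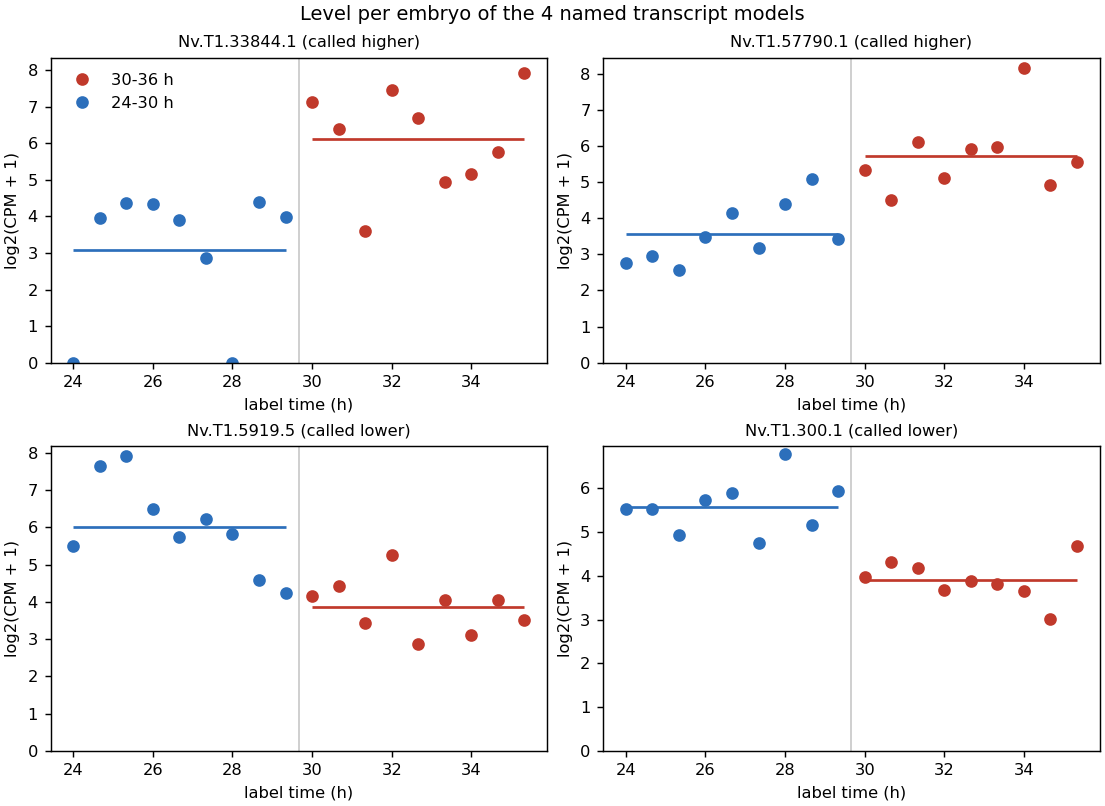
Level of the 4 named models in each embryo, as log2(CPM + 1), against label time in h, with 30-36 h embryos in red and 24-30 h embryos in blue and a line at the mean of each window. For Nv.T1.300.1 all red points lie below all blue points, whereas for the other models between 7 and 8 of the 9 red points clear the blue range.

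Without the 6 embryos that stood apart, the 4 named models kept their directions, but 3 of them missed the threshold. The log2 fold changes were then 2.84 for Nv.T1.33844.1 (adjusted p = 0.0671, edgeR), 1.88 for Nv.T1.57790.1 (0.0597) and -1.44 for Nv.T1.300.1 (0.0518), while Nv.T1.5919.5 stayed called at -2.61 (0.0198). Over all alternatives run, the adjusted p of these models ranged from 0.00012 to 0.0671, from 0.000204 to 0.0619, from 5.25e-05 to 0.0518 and, for Nv.T1.5919.5, from 0.000198 to 0.0593. Leaving out embryos 49 and 54 together kept all 4 calls, with adjusted p between 0.0272 and 0.0386.

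The other called models were spread over many stems. The 54 risers carried 47 identifier stems and the 17 fallers 11, and 7 stems held more than 1 called model. Summed counts rose for stem 66355 (log2 1.93 ± 0.27, SE, adjusted p = 0.00235, edgeR), where 2 of 4 models were called higher, and for stem 5684 (1.43 ± 0.26, 0.0227), where 2 of 3 tested models were. Summed counts fell for stem 11950 (-1.83 ± 0.40, 0.0405) and stem 7836 (-1.42 ± 0.29, 0.0308), with 2 models called lower in each. The large stem 63571 held 7 called models, 6 higher and 1 lower, out of 850 tested, and its sum differed by 0.28 ± 0.13 (adjusted p = 0.358). Stem 12653 held 2 called fallers out of 377 tested models, and its sum differed by -0.05 ± 0.12 (adjusted p = 0.896). Counts that fall on near-identical models of a stem are uncertain.

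Some calls leaned on single embryos. Embryo 53 had the highest level of its window for 24 of the 54 risers and embryo 52 for 17 of them, while embryos 48 and 54 were highest for 0. Among the fallers, embryo 39 was the highest of 24-30 h for 7 of 17 models and embryo 38 for 5. How often each embryo was the highest over all models tested was not counted, so these tallies have no background beside them. The riser with the largest fold change of all had 64.6% of its summed 30-36 h CPM in embryo 53, and its log2 fold change of 3.30 became 1.92 (adjusted p = 0.153, edgeR) without that embryo. The faller with the largest fold change had 96.9% of its summed 24-30 h CPM in embryo 44, and its log2 fold change of -5.56 became -0.68 (adjusted p = 0.387) without that embryo. Both were outside the naming rule and are described because of their values.

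The share of models already present at the first stages was not above the background among the risers. Pooled over 0-6 h embryos, 39 of the 54 risers (72.2%) were at 5 CPM or more, 7 lay between 1 and 5 CPM and 8 (14.8%) were under 1 CPM, 3 of these at 0. Over all models tested, 80.7% were at 5 CPM or more at 0-6 h and 7.84% under 1 CPM. The share called higher was 0.804% of the 995 models under 1 CPM at 0-6 h, 0.483% of the 1450 between and 0.381% of the 10244 at 5 CPM or more. Of the 17 fallers, 16 were at 5 CPM or more at 0-6 h and 1 was under 1 CPM.

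The risers present at 0-6 h passed through a low point at 24-30 h. Their summed level averaged 2910 ± 396 CPM at 0-6 h, 1940 ± 535 CPM at 6-12 h, 1750 ± 922 CPM at 12-18 h, 1230 ± 271 CPM at 18-24 h and 843 ± 145 CPM at 24-30 h (SD, n = 8 at 18-24 h and 9 otherwise). It was then 2640 ± 1050 CPM at 30-36 h, 1990 ± 479 CPM at 36-42 h and 2150 ± 694 CPM at 42-48 h. The values at 24-30 h and 30-36 h follow from the choice of the risers, and the high value at 0-6 h follows from taking those at 5 CPM or more there. The levels in the windows from 6 to 24 h and from 36 to 48 h were not used to choose them.

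The other 15 risers were split off by their level of under 5 CPM at 0-6 h, which fixes their low start. Their summed level averaged 24.0 CPM at 0-6 h, 43.5 CPM at 6-12 h, 206 CPM at 12-18 h and 404 ± 195 CPM at 18-24 h. It was 215 ± 51.2 CPM at 24-30 h, then 860 ± 314 CPM at 30-36 h, 701 ± 171 CPM at 36-42 h and 822 ± 359 CPM at 42-48 h. The mean at 24-30 h, which the choice of the risers keeps low, lay below that of 18-24 h in both sets.

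For the fallers, the summed level was highest early, at 6820 ± 4390 CPM in 6-12 h embryos. It averaged 2890 ± 2250 CPM at 18-24 h, 3280 ± 1790 CPM at 24-30 h, 855 ± 178 CPM at 30-36 h, 1340 ± 1220 CPM at 36-42 h and 1300 ± 1070 CPM at 42-48 h (SD). In single embryos it ranged from 578.1 to 1170 CPM at 30-36 h, against 1786 to 7614 CPM at 24-30 h, where embryo 44 was the highest by far. Median sums were 2172.5 CPM at 18-24 h, 851.3 CPM at 30-36 h, 861.2 CPM at 36-42 h and 943.6 CPM at 42-48 h. At 18-24 h, 36-42 h and 42-48 h the highest embryos reached 8337, 4428 and 3868 CPM. The median level over the list, which 1 model cannot set, was 4.63 ± 0.46 on the log2(CPM + 1) scale at 30-36 h and 6.31 ± 0.78 at 24-30 h. This median was 5.67 ± 0.39 at 18-24 h, 4.81 ± 0.65 at 36-42 h and 4.63 ± 0.56 at 42-48 h.

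Embryos with numbers 74 to 123, whose label times run from 39.3 h on, form a second number block and had lower sums of the risers than embryos 1 to 73 of the same windows. The 54 risers summed to 1410 ± 345 CPM at 36-42 h (n = 4) and 1440 ± 122 CPM at 42-48 h (n = 8) in the second block, against 2690 ± 573 CPM at 36-42 h and 2970 ± 1020 CPM at 42-48 h in the first block (SD, n = 9 each). At 36-42 h the 4 embryos of the second block had label times from 39.3 h on, whereas those of the first block started at 36 h. No test of the difference in sums was run, and the risers were chosen in embryos of the first block alone. Nv.T1.33844.1 likewise averaged 78.3 ± 40.3 CPM in the second block at 42-48 h (n = 8), against 145 ± 98.1 CPM in the first block (SD, n = 9), and reached 180 ± 133 CPM at 66-72 h in the second block (n = 9).

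**Figure D3:**
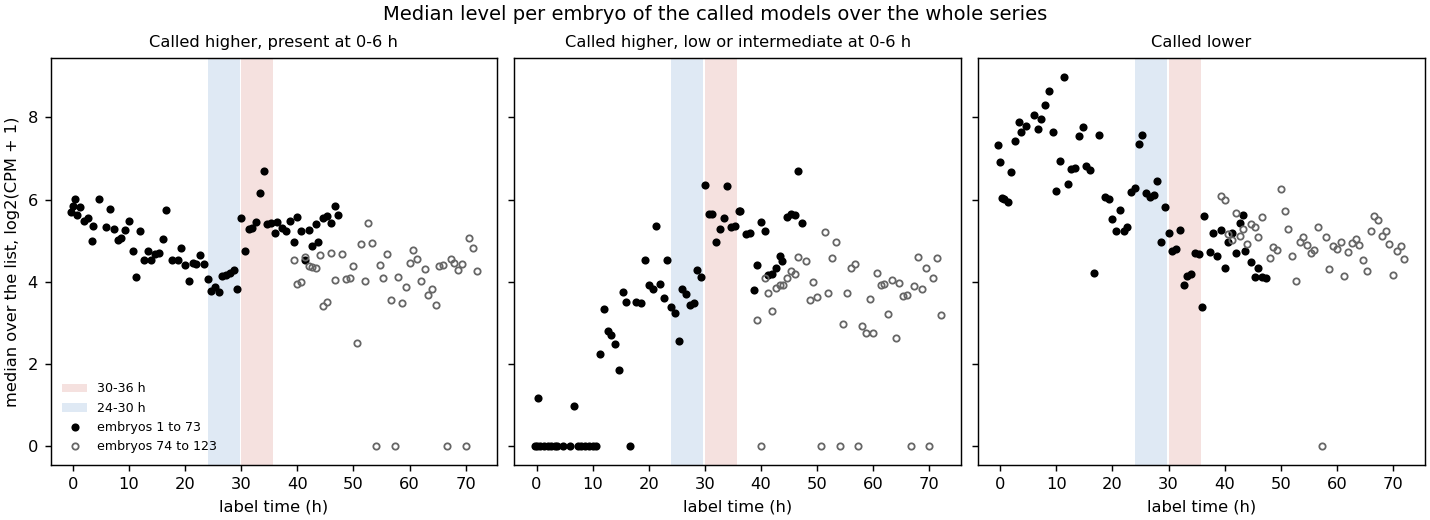
Median level over each list, as log2(CPM + 1), in 121 of the 123 embryos against label time in h, for the 39 risers present at 0-6 h (left), the 15 risers low or intermediate then (middle) and the 17 fallers (right). Filled points are embryos 1 to 73 and open points embryos 74 to 123, and shading marks the 30-36 h (red) and 24-30 h (blue) windows that were used to choose the lists.

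Windows of 36-42 h (9 embryos) and 18-24 h (8 embryos), which share no embryo with the comparison above, were used to see the called models in other embryos of the same number block. There, 1430 of 11936 models were called (12.0%), 905 higher (7.58%) and 525 lower (4.40%) in 36-42 h embryos. Of the 54 risers, 51 were tested. Among these 47 had a positive log2 fold change (92.2%, against 50.6% of all models tested in both comparisons), the median was 1.02 (against 0.01), and 24 were called higher and 0 lower. Of the 17 fallers, 12 had a negative log2 fold change, against 5690 of the 11507 models tested in both comparisons. The median of the fallers was -0.96, and 6 were called lower and 0 higher. The 54 risers carried 47 identifier stems and the 17 fallers 11, so the members of a list were not all separate values. With spike-in scaling, which shifted the median over all models to -0.42, 42 of the 51 risers were positive and 15 of the 17 fallers negative. The shares of all models that were positive or negative under this scaling were not counted. Neither the 42 risers nor the 15 fallers therefore have a background beside them. The calls became 17.3% higher instead of 63.3%.

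The named models did not behave alike over this longer span. Nv.T1.33844.1 had a log2 fold change of 4.45 ± 0.70 (SE) for 36-42 h over 18-24 h (adjusted p = 0.000364, edgeR), larger than between the neighbouring windows. Nv.T1.57790.1 had 1.02 ± 0.40 (adjusted p = 0.0818), which did not pass. Neither named faller passed, with -0.21 ± 0.42 for Nv.T1.5919.5 (0.766) and 0.65 ± 0.35 for Nv.T1.300.1 (0.204). The mean levels of both were lower at 18-24 h than at 24-30 h.

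Because every embryo had its own time, a linear term of label time was also fitted over the 18 embryos (edgeR's quasi-likelihood test, adjusted p under 0.05 without a fold threshold). It called 264 of 8516 models (3.10%), 188 rising (2.21%) and 76 falling (0.892%). A filter without groups was used here, so fewer models were tested and Nv.T1.33844.1 and Nv.T1.57790.1 were not among them. Without the 6 embryos that stood apart 162 models were called, 105 rising and 57 falling. Without embryo 53 alone 79 were called.

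The steepest rise called in every leave-one-out fit was that of Nv.T1.9848.3, with 28.51, 152.1 and 370 CPM (lowest, median, highest) at 30-36 h and 3.699, 37.36 and 50.91 CPM at 24-30 h. The embryo of 31.33 h and those from 32.67 h on were at 150.1 CPM or more, whereas the embryos of 30, 30.67 and 32 h overlapped with the earlier window. Its slope was 2.24 ± 0.31 log2 units per 6 h (SE, adjusted p = 0.00107, edgeR), and in the comparison of windows its log2 fold change was 2.38 ± 0.46 (0.0231). That difference was called in 17 of 18 leave-one-out fits, and with spike-in scaling it was 1.97 (adjusted p = 0.0757) and not called. Its mean was 138 CPM at 0-6 h, 31.7 CPM at 24-30 h, 154 CPM at 30-36 h and 90.3 CPM at 36-42 h.

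The next was Nv.T1.12653.340, 1 of 539 models of its stem, with 29.53, 83.62 and 491.3 CPM at 30-36 h and 5.064, 26.41 and 86.41 CPM at 24-30 h. The 4 earliest embryos of 30-36 h lay between 29.53 and 45.91 CPM, inside the range of 24-30 h, and embryo 53 was the highest, with the next at 183.2 CPM. The slope was 1.93 ± 0.37 per 6 h (SE, adjusted p = 0.00611, edgeR), while the difference between the windows, 2.07 ± 0.53, had an adjusted p of 0.0637 and was not called. With spike-in scaling the slope was 1.31 (adjusted p = 0.104, range over all alternatives 0.0045 to 0.104).

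The steepest falls were in the stem 5919. Nv.T1.5919.5 had a slope of -2.21 ± 0.33 per 6 h (SE, adjusted p = 0.00175, edgeR) and Nv.T1.5919.8 one of -1.94 ± 0.33 (0.00329). Nv.T1.5919.8 had 8.191, 19.3 and 59.18 CPM at 30-36 h and 11.44, 73.42 and 234.3 CPM at 24-30 h. The 2 latest embryos of 24-30 h were the lowest of that window, at 21.6 and 11.44 CPM, and embryo 49 was the highest of 30-36 h. The windows overlapped. The difference between them was not called (adjusted p = 0.0506, edgeR), nor was it in any of the 18 leave-one-out fits. The means of the models were close at 0-6 h, with 375 ± 727 CPM for Nv.T1.5919.8 and 369 ± 720 CPM for Nv.T1.5919.5 (SD, n = 9), and at 24-30 h, with 91.6 and 88.6 CPM. They were apart in late embryos of the second block, with 15.7 and 3.72 CPM at 60-66 h. How counts were split between models of 1 stem is uncertain.

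Within the windows no trend passed the test. With the window as a term and label time centred inside it, a fit added after the data were seen, edgeR called 0 of 12689 models (0.00%; smallest adjusted p 0.116, and 937 at an unadjusted p under 0.05). The difference of these trends between 30-36 h and 24-30 h likewise gave 0 calls (0.00%; smallest adjusted p 0.117, and 734 at an unadjusted p under 0.05). The trend inside the windows was positive for 46 of the 54 risers (85.2%, against 52% of all models tested), with a median of 0.50 log2 units per 6 h against 0.03. It was negative for 14 of the 17 fallers, with a median of -0.81. The same embryos were used to choose the lists, so these values describe the lists only.

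How many models were called depended strongly on single embryos. Leaving out embryo 52 or embryo 53, the embryos with the highest levels of many risers, left 16 and 17 calls. Leaving out embryo 37, 38, 39, 40 or 42 left 24, 24, 24, 21 and 41 calls, while leaving out embryo 49, 44 or 45 gave 128, 124 and 134. Without embryo 54, the library with the most unaligned counts, 49 models were called (38 higher and 11 lower), 45 of them among the 71. Without embryo 49 all 71 were kept among the 128 (99 higher and 29 lower), and without both 93 were called, 57 of them among the 71.

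Without the 6 embryos that stood apart 38 models were called, 23 higher (60.5% of the calls) and 15 lower, and 14 of them were among the 71. All 54 risers and all 17 fallers kept their direction there, with medians of 1.55 and -1.79. Part of each list's direction is fixed by the choice of its members in the same embryos.

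**Figure D4:**
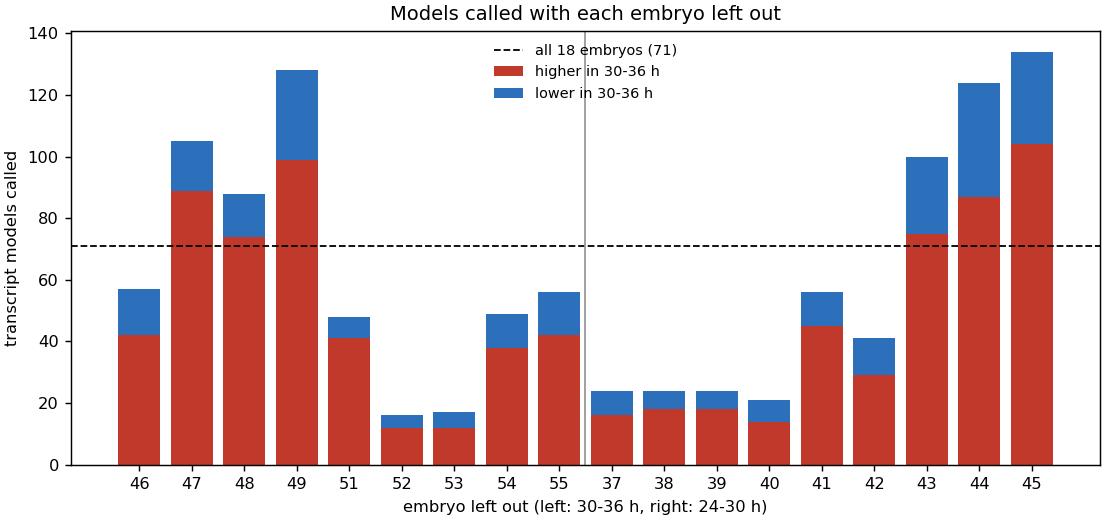
Number of transcript models called (vertical axis) when each embryo is left out in turn, split into models higher (red) and lower (blue) in 30-36 h embryos. Embryos of 30-36 h stand left of the line and those of 24-30 h right of it, and the counts run from 16 without embryo 52 to 134 without embryo 45, around the 71 of all 18 embryos (dashed line).

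Overall RNA content was compared through the spike-ins, synthetic RNAs added to each sample. The gene counts per spike-in count were 1.935, 5.052 and 7.706 (lowest, median, highest) in 30-36 h embryos and 3.238, 6.424 and 8.504 in 24-30 h embryos, and the windows overlapped over most of their range. The geometric means were 4.66 and 5.74, a log2 difference of -0.30 ± 0.31 (SE, n = 9 each), which did not pass a two-sided exact permutation test over 48620 arrangements (p = 0.34, adjusted p = 0.34 over 2 single-value comparisons). Without the 6 embryos the difference was -0.29 (p = 0.0866). The amount of spike-in RNA per embryo was not given in the sources used here, so the ratio covers captured RNA relative to that amount.

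At an equal depth of 100000 gene counts, the expected number of models with at least 1 count was 13524, 14376 and 14922 (lowest, median, highest) at 30-36 h and 13512, 13927 and 14367 at 24-30 h. Of the 30-36 h embryos, 5 lay above every 24-30 h embryo, and the lowest of both windows were nearly equal. The means were 14253 ± 422 at 30-36 h and 13952 ± 276 at 24-30 h (SD, n = 9 each), a difference of 300.4 ± 168 (SE) that did not pass the exact permutation test (p = 0.0928, adjusted p = 0.186). Embryo 46 decided this call. Without it the difference was 391.5, with an adjusted p of 0.0402 in the exact permutation test.

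**Figure D5:**
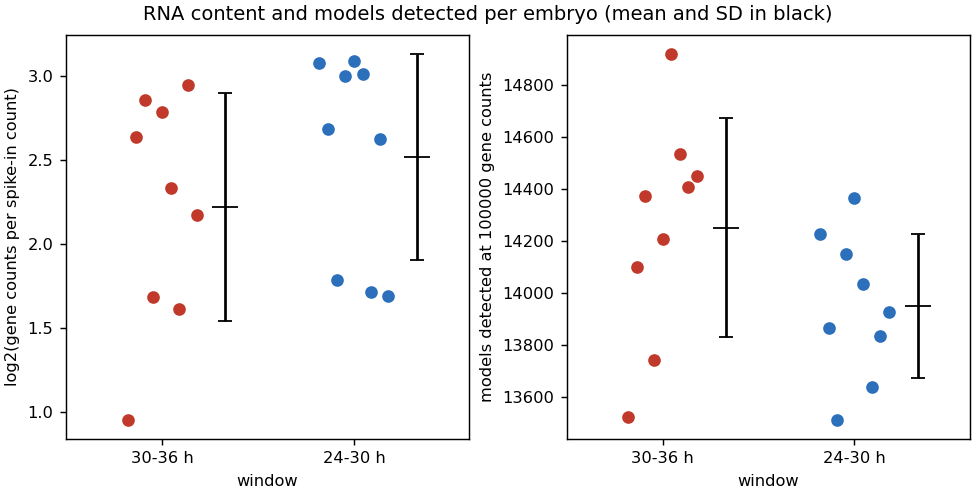
Log2 of gene counts per spike-in count (left) and expected number of transcript models detected at 100000 gene counts (right) for each embryo of 30-36 h (red) and 24-30 h (blue), with the mean and SD in black. The windows overlap in both panels, with means of 14253 and 13952 models in the right one.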

How the data were processed

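RNA of 123 single embryos was measured with CEL-Seq, and 18 of them make up the 2 windows compared. The table that the authors deposited holds raw whole-number counts, not normalized, of 40499 transcript models, 92 spike-ins and 5 kinds of unassigned counts. The submitters' processing notes name CASAVA 1.8, Bowtie2 2.1.0 and HTSeq 0.5.4p3, with the genome build and annotation not given in the sources used here. Ambiguous and not uniquely aligned counts were 0, and counts on overlapping models are uncertain. Embryos 10 (0-6 h) and 111 (42-48 h, second block), with under 50000 gene counts, were left out of levels across the series. Spike-ins and unassigned counts stayed out of library sizes and tests. Counts assigned to no feature were 8.25 to 10% of all counts at 30-36 h and 7.68 to 10% at 24-30 h.

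Models were tested with edgeR 4.0.16 in R 4.3.3 (quasi-likelihood F test, TMM scaling, filterByExpr), with p adjusted over all models tested. The size of a log2 fold change over the root of its F statistic was taken as its standard error. CPM were computed from counts on models. The scripts were tested on simulated data. Alternatives included DESeq2 1.42.0, where undefined adjusted p stayed undefined, and limma 3.58.1. The fit without 6 embryos and the trend inside windows were added after the data were seen. Named models had a mean of at least 10 CPM in the higher window, were called in all 18 leave-one-out fits and had the largest change, 2 per direction, in the window fit and in the slope fit. The members and lists were chosen with earlier results of these data known. No sequence is printed, because the models were paired with none here.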

Additional observations from a re-analysis of the deposited data

Results flagged for a closer look

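In 7 of 26 groups of values tested, 1 embryo lay far from the others of its window by Dixon's criterion at the 95% level. For normally distributed values chance reaches this in about 1 in 20 groups. The flagged values were not log-transformed, and all 7 were the highest of their window, so that rate need not hold here. Embryo 53 was the highest 30-36 h embryo for Nv.T1.57790.1, at 285.2 CPM with the next at 68.91 CPM, and for Nv.T1.12653.340, at 491.3 CPM with the next at 183.2 CPM. Embryo 49 was the highest 30-36 h embryo for Nv.T1.5919.5, at 37.2 CPM with the next at 20.37 CPM, and for Nv.T1.5919.8, at 59.18 CPM with the next at 33.39 CPM. These 2 models share a stem. Embryo 43 was the highest 24-30 h embryo for Nv.T1.300.1, at 108.9 CPM with the next at 60.45 CPM. Embryo 54 had 47.52% unaligned counts, with the next 30-36 h embryo at 41.26%. The summed level of the models called lower was 7614 CPM in embryo 44, with the next 24-30 h embryo at 3815 CPM. The cause of each was not tested.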

How the results depend on the processing

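Against 71 calls between 30-36 h and 24-30 h embryos, DESeq2 made 463 (70 of the 71 among them), voom with quantile normalization 112, spike-in scaling 32, no filter on low counts 123, 1 fit over the 6 h windows of the first number block 149, the fit without embryo 49 gave 128 and that without the 6 embryos 38. Leaving out 1 embryo each gave 16 to 134. Against 264 models changed with label time, a spline called 31, spike-in scaling 26 (4 rising and 22 falling), no filter 1073 and the fit without the 6 embryos 162. Leaving out 1 embryo each gave 79 to 282, with 155, 155, 152, 135 and 170 without embryos 52, 37, 39, 40 and 42. The count for 36-42 h against 18-24 h ranged from 1210 to 1432. The difference in gene counts per spike-in count passed under none of its 22 alternatives. The difference in models detected ranged from 216.8 to 391.5 with 1 embryo left out and passed only without embryo 46 (30-36 h). It was 571.4 (exact permutation p = 0.0501) at a depth of 300000 and 690.7 without equal depth. No named model changed direction in any alternative run. For the 18 leave-one-out fits the naming rule fixes this. Depth limits what can be seen under about 7.6 CPM in the shallowest embryo. The cause of these changes was not tested. No paired analysis was possible because the embryo numbers are not shared between windows.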
